A study of Mus musculus with 13 samples.

Results

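The cytochrome P450 (Cyp) genes were examined in mouse liver after knockdown of LL35, a long non-coding RNA also named Falcor. Members were the protein-coding rows of the liver gene table whose symbol starts with Cyp and a number. Cyp7a1, Cyp7b1, Cyp8b1, Cyp27a1 and Cyp51, which serve bile acid and cholesterol synthesis, were left out. This gave 58 members of 11396 protein-coding rows, in a table of 11779 rows.

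All mice were Balb/c, and livers were taken on day 5 after injection. One group of 3 mice was given a mix of antisense oligonucleotides (ASOs) against LL35. The paper's text gives 5 ASOs, while its supplementary list for mice shows fewer. The other group of 3 mice was given an ASO against luciferase (Luc), which has no target in the mouse. Both were conjugated to GalNAc, a sugar ligand that directs oligonucleotides to hepatocytes, so the control animals also received a conjugated ASO and no uninjected group was analysed here. Sex and age of the mice are not given in the sources used here.

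The table held no value for a single mouse. The only quantity used is the authors' mean normalized count of each gene, taken over the livers of both ASO groups together, which has no spread. It describes the P450 genes of these livers as a whole, and LL35 ASO and Luc ASO livers cannot be told apart in it. No test was possible on it, and the reads per mouse are unknown. Where 2 genes lie next to each other in the order of levels, it cannot be said whether they differ beyond the spread between mice. No row carried the symbol of the LL35 gene, 9030622O22Rik, so the knockdown could not be checked on this quantity.

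Cytochrome P450 enzymes are heme proteins that insert 1 atom of molecular oxygen into a substrate. In the liver most of them sit in the endoplasmic reticulum of hepatocytes and take electrons from P450 oxidoreductase. Enzymes of the CYP1, CYP2 and CYP3 families oxidise drugs, toxins, steroids and fatty acid derivatives, those of the CYP4 family hydroxylate the end of fatty acid chains, and several smaller families each handle a particular sterol or vitamin. Many P450 genes lie side by side as near copies of each other, which matters for counting reads.

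All P450 enzymes hold their heme iron through a cysteine in a short loop near the end of the protein. The coding bases of this loop are shown because they let a reader see how close the members are in sequence. A loop pattern was found in the longest coding transcript of 55 of the 58 members, but not in that of Cyp2b10, Cyp39a1 or Cyp20a1. The sequences below were read from GENCODE M21 transcripts and cover 30 coding bases, with the cysteine codon, bases 22 to 24, in capitals.
Cyp2e1: ttttctgcaggaaagcgcgtgTGTgttgga
Cyp3a11: tttgggaatggacccaggaacTGCcttggc
Cyp3a41a: tttggaattggacccaggaacTGCattggc
Cyp3a41b: tttggaattggacccaggaacTGCattggc
Cyp4a14: ttctcaggaggatcaaggaacTGCattggg
Cyp4a10: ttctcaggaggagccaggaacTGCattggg
Cyp4a32: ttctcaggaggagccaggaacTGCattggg
Cyp2a4: ttttccattggaaaacggtatTGTttcgga
Cyp2a5: ttttccattggaaaacggtatTGTttcgga
The codon was TGC in 29 members and TGT in 26. The loops of Cyp2e1 and Cyp3a11 differed at 17 of 30 bases, and those of Cyp2e1 and Cyp4a14 at 14. Cyp4a10 and Cyp4a14 differed at 2 bases, whereas Cyp4a10 and Cyp4a32, Cyp2a4 and Cyp2a5, and Cyp3a41a and Cyp3a41b were identical over the whole stretch.

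The tissue was checked against marker genes before the members were described. All 10 hepatocyte markers were listed, with albumin (Alb) the highest gene of the table at a mean normalized count of 1217472. Their levels, as mean normalized count per kb of exon, ran from 2092 for Asgr1 to 519843 for Alb. Of the 5 cholangiocyte markers, Krt19, Krt7 and Epcam had no row, and Sox9 and Spp1 stood at 9.94 and 91.9 per kb. The 6 Kupffer cell markers lay between 55.4 and 791 per kb, the 6 endothelial markers between 41.4 and 289, and the 6 stellate cell markers between 13.8 and 265. These are bulk tissue values, in which fewer cells of a type and less RNA per cell cannot be told apart.

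The P450 genes with a row stood high in these livers. Of the 94 P450 genes of this kind in RefSeq, 36 had no row and thus no level. They are outside the counts below, which compare listed genes with listed genes. The members together held 3.05% of the summed mean normalized count of all protein-coding rows, a share in which long genes weigh more. Levels of different genes are compared from here on per kb of exon in GENCODE M21, and each such value is a level. The median member stood at 681 per kb against 52.1 over the 11385 protein-coding rows with a length, which is 13.1-fold higher. With coding length in place of exon length the same ratio of medians was 6.49. In all, 50 of the 58 members lay above the median protein-coding gene, 38 were in the highest 10% of protein-coding rows and 9 in the highest 1%. The members Cyp46a1 and Cyp1b1 were in the lowest 10%. These counts depend on the length used. Per kb of coding sequence 28 members were in the highest 10%, 5 in the highest 1% and 4 in the lowest 10%, Cyp2g1 and Cyp4f16 being added.

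**Figure D1:**
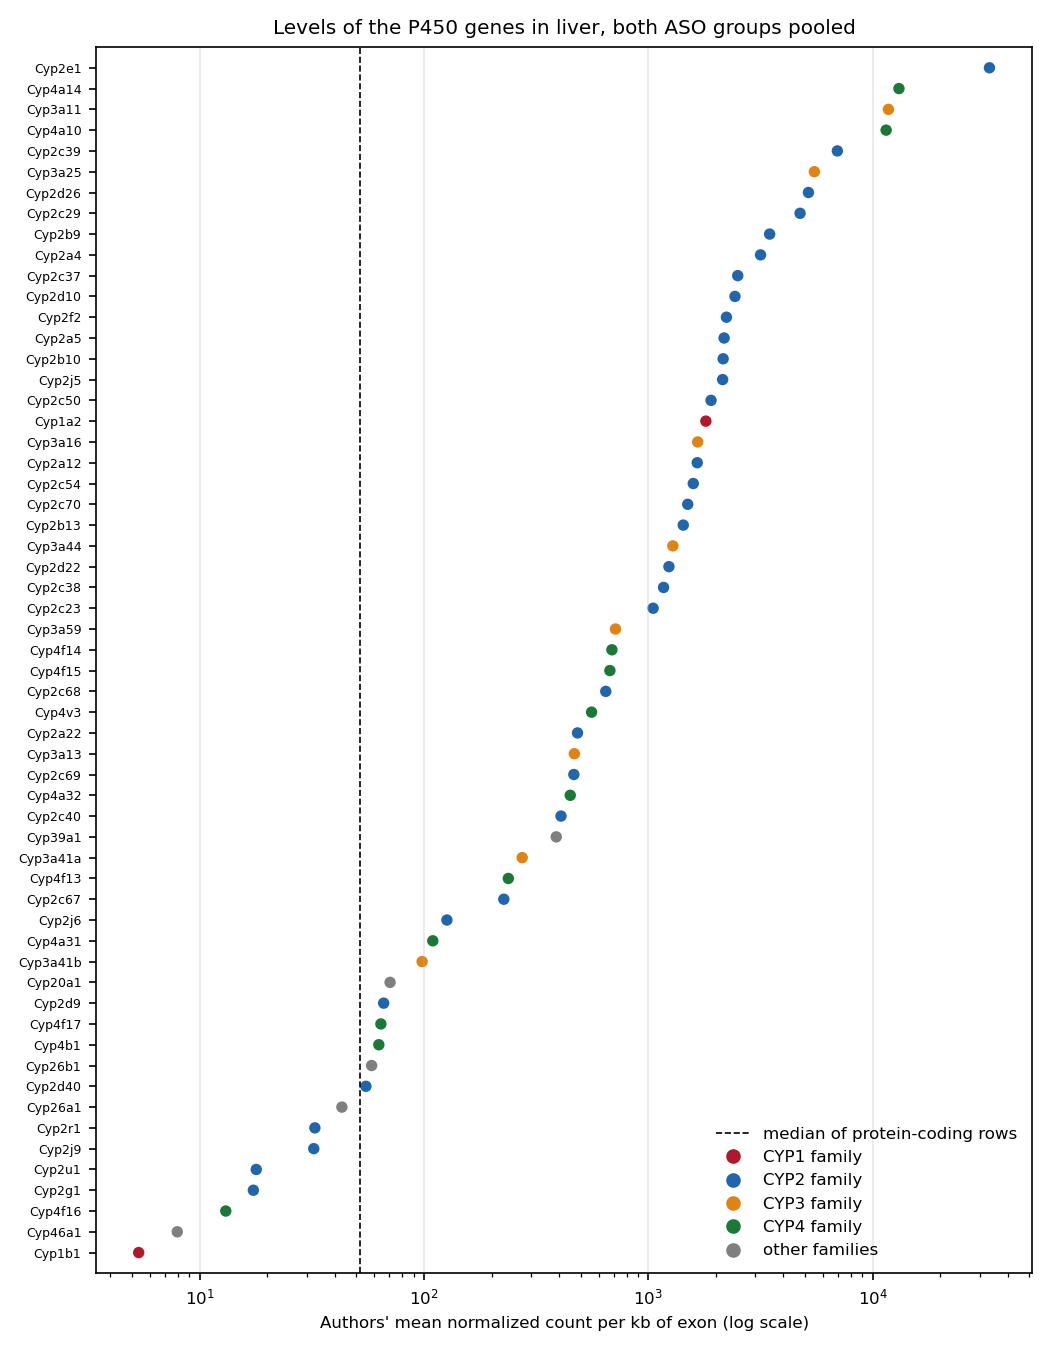
Level of each of the 58 P450 genes as the authors' mean normalized count per kb of exon (horizontal log axis), ordered by level and coloured by family, with 1 point for the pooled mean of both ASO groups and no error bar because no values of single mice were used. The points run from 5.35 for Cyp1b1 to 33192 for Cyp2e1, and 50 of them lie to the right of the dashed line, the protein-coding median of 52.1.

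The members were very unequal. Cyp2e1, which oxidises ethanol, acetone and acetaminophen, had the highest level at 33192 per kb and a mean normalized count of 71629. Its level was 2.53-fold that of the next member and 6208-fold that of the lowest, Cyp1b1. Cyp4a14 at 13108 per kb and Cyp4a10 at 11491 per kb, both fatty acid omega-hydroxylases, and Cyp3a11 at 11767 per kb, a broad drug and steroid oxidase, followed. These 4 genes held 51.1% of the summed P450 level, the 10 highest held 72.4%, and the 30 lowest held 5.03%. Cyp3a11 has 5093 exonic bases over all its transcripts together, and its place depends on the length used. Over the longest transcript Cyp3a11 stood at 21387 per kb, between Cyp2e1 at 39077 and Cyp4a14 at 13660. Per kb of coding sequence it stood at 39634, between Cyp2e1 at 48431 and Cyp4a14 at 22416, so that Cyp2e1 was 1.22-fold above the next member. On that scale Cyp46a1 at 17.4 was the lowest member, 2782-fold below Cyp2e1, and Cyp1b1, which has 5840 exonic bases, stood at 19.2.

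The other members among the 15 highest all came from the CYP2 and CYP3 families. Cyp2c39, a retinoic acid hydroxylase and arachidonic acid epoxygenase, stood at 6966 per kb and Cyp3a25 at 5501. Cyp2d26 stood at 5177, and Cyp2c29 at 4750. Cyp2b9 had 3476 per kb and Cyp2b10, the classical phenobarbital-induced P450, 2156. Cyp2a4, a testosterone hydroxylase, had 3166 and its close relative Cyp2a5, which oxidises coumarin and nicotine, 2178. Cyp2c37, Cyp2d10 and Cyp2f2 lay between 2230 and 2505. The order of these genes is given without error.

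Grouped by family, the CYP2 genes held 62.1% of the summed P450 level with 32 members, the CYP4 genes 20.2% with 11 members, and the CYP3 genes 16.0% with 8 members. By subfamily, Cyp2e held 24.4% with its single gene. Cyp4a held 18.5% with 4 members, Cyp2c 17.0% with 12 and Cyp3a 16.0% with 8. This order depends on the length used. When the counts were not divided by length, Cyp3a held the largest share, 24.0%, and Cyp2e 21.4%. Per kb of coding sequence the Cyp3a members together also stood above Cyp2e1, with Cyp3a11 alone at 39634 against 48431.

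**Figure D2:**
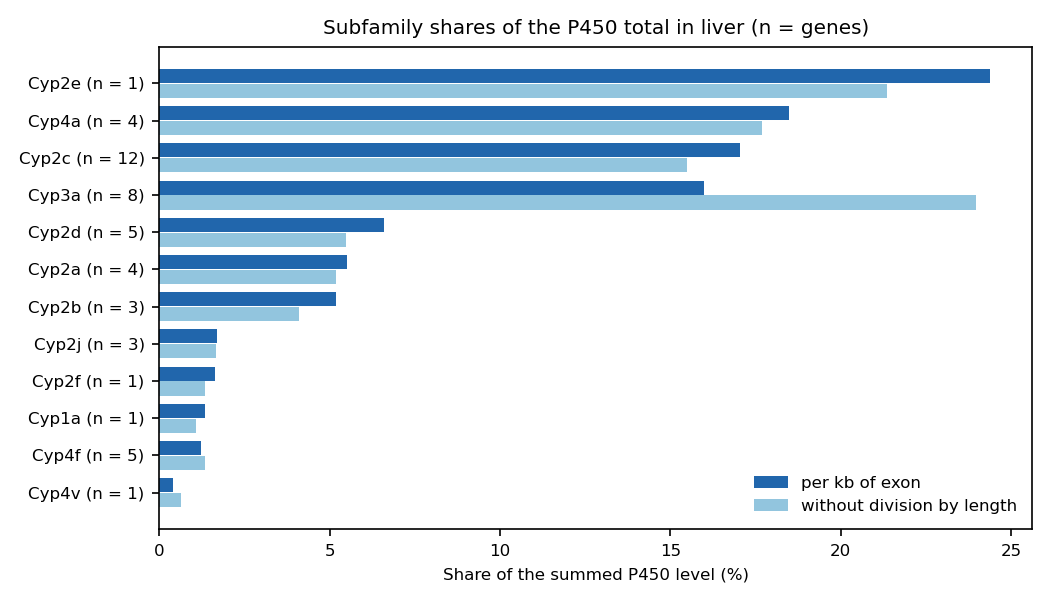
Share of the summed P450 level (horizontal axis, percent) held by each of the 12 highest subfamilies, with dark bars for levels per kb of exon, light bars for mean normalized counts not divided by length, and the number of member genes in brackets. Cyp2e leads at 24.4% per kb of exon, and Cyp3a leads at 24.0% without division by length.

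Members within 1 subfamily also differed widely. In the Cyp4a group, whose genes are classical targets of the fatty acid receptor PPAR-alpha, Cyp4a14 stood 120-fold above Cyp4a31 at 109 per kb, and Cyp4a32 stood at 449. Cyp4a10 was 25.6-fold higher than Cyp4a32, and Cyp4a10, Cyp4a31 and Cyp4a32 have the same heme loop bases. In the Cyp3a group, targets of the xenobiotic receptor PXR, Cyp3a11 was 25.1-fold above Cyp3a13 at 468 per kb, and Cyp3a25 was 7.70-fold above Cyp3a59 at 714 per kb. Among the targets of the receptor CAR, Cyp2b9, Cyp2b10, Cyp2b13 and Cyp2c29 were listed at 1432 to 4750 per kb, and Cyp2c55 had no row. Of the targets of the dioxin receptor AhR, Cyp1a2, which oxidises caffeine and aromatic amines, stood at 1806 per kb, Cyp1b1 at 5.35, and Cyp1a1 had no row.

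The spread was as wide along the chromosome. Members lay on 12 chromosomes, with 13 on chromosome 19, 11 on chromosome 7 and 8 each on chromosomes 4 and 5. In 8 places 3 or more members belonged to an uninterrupted row of neighbouring P450 genes in RefSeq order. Ranges cover only the genes with a row. The run on chromosome 4 that holds the Cyp4a genes had 5 members among 10 P450 genes. Its levels spanned a 208-fold range, from Cyp4a14 to Cyp4b1, and the Cyp4a genes alone spanned 120-fold. The Cyp3a run on chromosome 5, with 7 members among 8 P450 genes, spanned a 120-fold range. The Cyp3a range rests on Cyp3a41b, a gene with hardly any bases of its own. It was 31.6-fold with the listed levels of Cyp3a41a and Cyp3a41b added together, a sum that lacks reads fitting both genes. Without Cyp3a41a and Cyp3a41b it was 16.5-fold, from Cyp3a11 to Cyp3a59. The Cyp2c run on chromosome 19, with 11 members among 14 P450 genes, spanned 30.7-fold. The Cyp2b run on chromosome 7, with 3 members among 4 P450 genes, was the most even over its listed genes. It spanned 2.43-fold from Cyp2b9 to Cyp2b13.

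Groups with particular substrates were mostly lower, except the genes tied to arachidonic acid epoxygenation. Of these 11 genes 7 were listed, with a median of 1170 per kb, above the 681 of all members. The highest after the Cyp2c genes named above was Cyp2j5 at 2145 per kb. Cyp2j6 stood at 127 and Cyp2j9 at 32.3. Of 9 Cyp4f genes, which oxidise leukotrienes and vitamin K, 5 were listed, led by Cyp4f14 at 688 and Cyp4f15 at 674 per kb, with Cyp4f16 52.7-fold below Cyp4f14 at 13.1. Cyp39a1, an oxysterol hydroxylase of liver, had 389 per kb, and Cyp46a1, the cholesterol hydroxylase of brain, 7.94. The retinoic acid hydroxylases Cyp26b1 and Cyp26a1 had 58.4 and 43.1 per kb, and the vitamin D hydroxylase Cyp2r1 had 32.6. None of the 6 genes of steroid hormone synthesis had a row. Cyp20a1, whose substrate is not known, stood at 70.6 per kb. The lowest 5 members were Cyp2u1 at 17.9, Cyp2g1 at 17.4, Cyp4f16, Cyp46a1 and Cyp1b1.

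Position along the liver lobule is another known property of these enzymes. All 7 P450 genes listed as pericentral, that is highest in hepatocytes near the central vein, were present, at 1587 to 33192 per kb. The periportal gene Cyp2f2, which oxidises naphthalene, stood at 2230 per kb. It lay 14.9-fold below Cyp2e1 but above 4 of the 7 pericentral genes, Cyp2a5, Cyp2c50, Cyp1a2 and Cyp2c54. This set depends on the length used. Cyp2a5 was close at 2178 per kb, and per kb of coding sequence Cyp2c50 at 3780 lay above Cyp2f2 at 3066. The other periportal gene, Cyp17a1, had no row. Bulk tissue does not show in which zone the RNA lay.

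Several mouse liver P450 genes are known to differ between the sexes. Of 12 genes known as female-biased, 11 were listed, at 98.1 to 3476 per kb and with a median of 1287 per kb. Of 6 known as male-biased, 4 were listed, with a median of 1148 per kb, and Cyp4a12a and Cyp4a12b had no row. Cyp2d9, a testosterone hydroxylase, stood at 66.1 per kb, 52.6-fold below Cyp2b9, the highest of the female-biased genes. The male-biased list also holds Cyp2u1 at 17.9, Cyp2f2 at 2230 and Cyp2e1 at 33192 per kb, the last being the highest member. Xist, the RNA of the inactive X chromosome, had a mean normalized count of 19642, and the Y-linked genes Ddx3y, Kdm5d, Eif2s3y and Uty had no row. The sex of the mice is not given in the sources used here.

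Reads were counted where they aligned to 1 place, so a gene with few bases of its own could collect few reads. To see which members this touches, every 50-base window of each member's transcripts was looked up in the GENCODE M21 transcripts of all other genes. The 50 bases were an assumption, as no usable read length was given. The median member had 90.8% of its windows to itself, 30 members had over 90%, and 10 shared none. In contrast, 17 members had under 75% and 5 had under 50% of their windows to themselves, namely Cyp3a41a, Cyp3a41b, Cyp2c40, Cyp2c69 and Cyp2c67.

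Cyp3a41a and Cyp3a41b were the extreme case. Cyp3a41a had 28 windows of 2011 to itself, or 1.39%, and shared 93.7% with Cyp3a41b, which had 6.50% of its own. Cyp3a41a was listed at 274 per kb and Cyp3a41b at 98.1. Per 1000 unique windows the level of Cyp3a41a became 20161, above the 12748 of Cyp3a11, so its value rests almost wholly on the length used. Taken as 1 gene, the pair had 80.8% of its windows to itself. Its summed count was 443 per 1000 such windows. That value is a lower bound, because reads fitting both genes were not counted. Levels of these 2 genes are therefore uncertain, one by one and as a pair.

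Other near copies were touched less. Cyp4a10 and Cyp4a32, with 70.2% and 56.2% of windows unique, differed 25.6-fold per kb and 21.1-fold per 1000 unique windows. Cyp2a4 was 1.45-fold higher than Cyp2a5 per kb and 1.61-fold per 1000 unique windows. Cyp2c40 and Cyp2c69 stood at 408 and 466 per kb, and at 942 and 993 per 1000 unique windows.

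**Figure D3:**
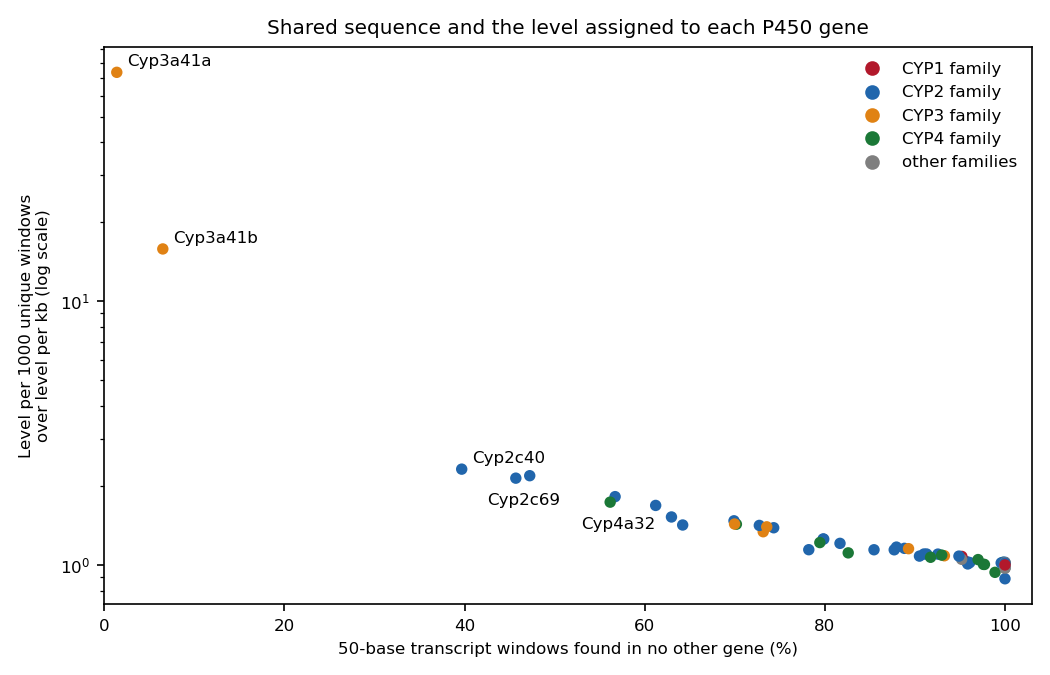
Percent of 50-base transcript windows found in no other gene (horizontal axis) against the level per 1000 unique windows divided by the level per kb of exon (vertical log axis), with 1 point for each of the 58 P450 genes, coloured by family. Cyp3a41a at 1.39% and Cyp3a41b at 6.50% stand far above all others, and members over 90% lie close to 1.

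The promoters of members were compared next, as a feature that the choice of members did not use. RefSeq (GRCm38.p6) windows from 250 bases before to 50 after the start were matched for 48 of the 58 members, as 53 windows of 32851 in all. After the levels were seen, 16 short motifs were searched on both strands. Neighbouring P450 genes share promoter sequence, so these windows are not independent of each other, and a match is a description and not a binding site. CAAAGTCCA, a letter string bound by HNF4A, was found in 17.0% of member windows and 0.475% of all windows, in 9 members. Its looser form CAAAGTNCA, which includes it, was in 26.4% against 1.41%, and GGNCAAAGG was in 15.1% against 1.87%. TGTTTAC, bound by FOXA factors, was in 17.0% against 3.65%, and TATAAA, the TATA box, in 49.1% against 13.6%. A match to TATAAA, to its variant TATATA or to its variant TATAAG within bases 50 to 11 before the start, on the strand of the gene, was in 32.1% against 4.24%.

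TTGCNNAA of C/EBP factors was in 32.1% of member windows against 10.8% of all, ATTGAT in 24.5% against 7.54%, and GTTAAT in 15.1% against 7.10%. AGGTCA, read by nuclear receptors, was in 28.3% against 16.3%, TGTTCT in 26.4% against 19.0%, and CCAAT in 49.1% against 37.4%. GCGTG, the core bound by AhR, was in 18.9% of member windows against 32.4% of all, and TTCNNNGAA of STAT factors in 3.77% against 8.30%. TTGCGCAA, a full HNF1 site (GTTAAT and ATTAAC 1 base apart) and a direct repeat of AGGTCA 1 base apart were in none of the member windows and in 0.183%, 0.00913% and 0.0396% of all.

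Both CAAAGTCCA and TGTTTAC were present in 4 members, Cyp3a11, Cyp3a16, Cyp3a41a and Cyp3a41b. The stretches that hold both are shown to let a reader compare members of 1 gene row. All are on the minus strand of GRCm38.p6 and 5′ to 3′, with the 2 motifs in capitals. The first is chr5:145879945-145880062, from 208 to 91 bases before the start of Cyp3a11. The second is chr5:145469804-145469923, from 200 to 81 bases before that of Cyp3a16. The third is chr5:145720213-145720332, from 196 to 77 bases before that of Cyp3a41a, and the stretch of Cyp3a41b at chr5:145584807-145584926 has the same letters.
Cyp3a11: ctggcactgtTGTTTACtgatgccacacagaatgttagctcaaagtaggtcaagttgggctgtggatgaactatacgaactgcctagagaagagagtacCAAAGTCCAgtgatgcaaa
Cyp3a16: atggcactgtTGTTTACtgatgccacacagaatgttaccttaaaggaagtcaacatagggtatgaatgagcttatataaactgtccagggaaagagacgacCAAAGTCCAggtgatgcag
Cyp3a41a: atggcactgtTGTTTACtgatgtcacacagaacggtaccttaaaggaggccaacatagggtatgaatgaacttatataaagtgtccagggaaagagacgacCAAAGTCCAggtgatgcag
Levels of these genes were 11767 per kb for Cyp3a11, 1661 for Cyp3a16 and 274 for Cyp3a41a, the last being uncertain for the shared windows described above. The same pair of motifs stood before genes with unlike listed levels, and a link between motifs and levels was not tested.

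P450 enzymes also need partners. Of 7 electron donors, 6 were listed. Por, the oxidoreductase that feeds the microsomal P450 enzymes, stood at 3705 per kb, and the summed level of the members was 36.7 times that. Cyb5a, cytochrome b5, stood at 2234, Cyb5b at 611 and Cyb5r3 at 443. The mitochondrial donors Fdx1 and Fdxr were lower, at 184 and 79.0, and Fdx2 had no row. Pgrmc1, a heme-binding partner of P450 enzymes in the membrane, stood at 4833 and its relative Pgrmc2 at 169.

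All 12 genes of heme synthesis and breakdown were listed. Alas1, the rate-limiting enzyme of heme synthesis in liver, was the highest at 2396 per kb, followed by Alad at 793 and Cpox at 692. Ppox, a late step of the same pathway, had 43.2, which is 55.5-fold below Alas1. The heme oxygenases Hmox1 and Hmox2 stood at 258 and 159.

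All 13 transcription factors known to act on P450 genes were listed, and 12 of them lay above the median protein-coding gene. Hnf4a led at 2550 per kb, followed by Rxra at 1249, Cebpa at 1219, Nr1i3 (CAR) at 1148 and Ppara at 1015. Nr1i2 (PXR) stood at 508 and Ahr at 216. Stat5b stood at 108 and Cux2, a female-biased factor of mouse liver, at 70.5. Bcl6, a male-biased repressor, was the lowest at 19.2.

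**Figure D4:**
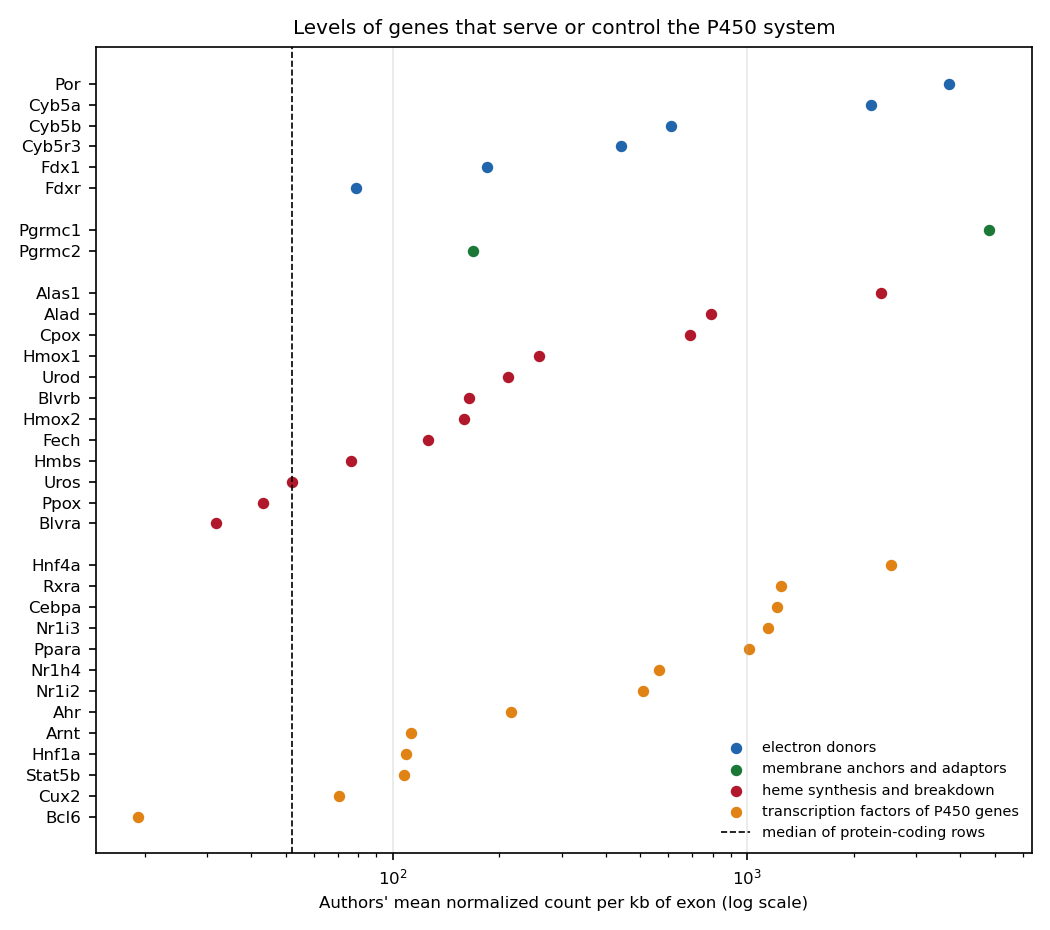
Level of the listed electron donors, membrane partners, heme genes and transcription factors as the authors' mean normalized count per kb of exon (horizontal log axis), with 1 point a gene for the pooled mean of both ASO groups and no error bar. The points run from 19.2 for Bcl6 to 4833 for Pgrmc1, and the dashed line marks the protein-coding median of 52.1.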

How the data were processed

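RNA of 6 livers, 3 a group, was sequenced by the authors after rRNA depletion with a directional kit. According to the paper's methods and the submitters' processing notes, reads were aligned with STAR 2.5.3a, uniquely mapped reads were counted on Ensembl genes and normalized in DESeq2 by the RLE method. The genome build and annotation release are not given in the sources used here. The authors deposited 1 liver table. Its mean normalized count of each gene is a signal averaged by the authors over the libraries of both ASO groups, with no SD or n, and it was the only quantity used. The other 5 numeric columns hold the authors' own comparison (log2 fold change, its error, statistic, p-value and adjusted p-value) and were not used, so no comparison between LL35 ASO and Luc ASO was made. The depth per mouse is unknown, so no interval is given. AML12 cell samples were not analysed here.

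Means were divided by union exon length in GENCODE M21 (GRCm38), matched by gene ID. All 58 members matched. RefSeq (GRCm38.p6) holds 94 P450 genes of this kind, and the 36 without a row were not analysed here. No further filter was applied to the rows. The lowest mean in the table was 15.6, so a gene without a row may still have had some reads. Scripts ran in Python 3.11.15 with pandas 2.3.3, biopython 1.88 and matplotlib 3.10.9, and length scaling, shares and window counts were tested on simulated data. The members and the 24 gene lists were chosen with earlier results of these data known. Named were the 15 highest and 5 lowest members, the highest of each family and the listed genes. Other members named, the ratios, the motifs and the sequences were chosen after their values were seen.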

Additional observations from a re-analysis of the deposited data

Results flagged for a closer look

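The table also held 3 P450 rows of the gene type pseudogene, which no comparison in the report uses. They were picked out because they carry counts outside the members. Cyp2d13 had a mean normalized count of 4560 and no length in GENCODE M21. Cyp2d36-ps had 796, with 100% of its 50-base windows unshared. Cyp21a2-ps had 22.9, and 35.7% of its windows were shared with Cyp21a1, which had no row. No control level was measured for these rows.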

How the results depend on the processing

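All values rest on a pooled mean, so any alternative value is given without a spread. The members' share of the protein-coding total was 3.05%. It was 2.97% of all rows, 3.87% per kb, 3.06% with rows of a mean normalized count of at least 50, and 3.43% without Alb, an alternative added after seeing the data. The median member stood at 681 per kb. It stood at 1094 per kb of coding length, 714 with the longest transcript, 1124 per 1000 unique windows and 883 over members with a mean of at least 50. The 10 highest members held 72.4%. They held 74.6% without division by length, 71.0% on unique windows, and 70.5% on unique windows without Cyp3a41a and Cyp3a41b, also added after seeing the data. The count of members was 61 with any gene type and 54 at a mean of at least 50. The coding-length percentiles and ratios and the Cyp3a ranges in the report were added after seeing the data too. The count above the protein-coding median was 44 with coding length, 47 with the longest transcript and 50 against rows of any gene type. No paired analysis was possible because no values of single mice were used, and leaving out a replicate was not run for the same reason.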

Other observations

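For 41 of the 58 members, the gene that shared the most 50-base windows with them belonged to their own subfamily. The 9 members found in the highest 1% of protein-coding rows per kb of exon were Cyp2e1, Cyp4a14, Cyp3a11, Cyp4a10, Cyp2c39, Cyp3a25, Cyp2d26, Cyp2c29 and Cyp2b9. Per kb of coding sequence they were 5, namely Cyp2e1, Cyp4a14, Cyp3a11, Cyp4a10 and Cyp2c29. Of the 10 highest members per kb, 9 were also among the 10 highest by mean normalized count.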
